A study of Mus musculus with 6 samples.

Results

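The metabotropic glutamate receptors and the Homer scaffold proteins that hold them at the synapse were represented by 9 genes, namely the receptor genes Grm2, Grm3, Grm4, Grm5, Grm7 and Grm8 and the scaffold genes Homer1, Homer2 and Homer3. They were chosen by gene symbol from the deposited table of normalized counts, which lists 24935 genes, and each of the 9 was found there once. All 9 were among the 17778 genes with a mean normalized count of at least 10 over the libraries, which were tested. RNA of the left hippocampus of C57BL/6 mice was sequenced at P14 (P for postnatal day), with 3 mice in the air group and 3 in the hyperoxia group. The hyperoxia group was kept with its dams in 85% oxygen at normal pressure from P2 to P14, and the air group was kept in room air over the same days. The pups were of both sexes, the sex of each sequenced mouse is not given, and no allele or other agent is named for either group. The libraries came from polyA RNA of whole hippocampal tissue by a strand-specific kit, so a lower level cannot be told apart between fewer cells of a type and less RNA per cell. Libraries are numbered 1 to 3 within a group after the deposited columns, and every direction below rests on the group named in those columns. The authors' own deposited comparison is named with air first, and its signs are those of air over oxygen, whereas the paper words its expression changes as changes in hyperoxia. The paper's tables list Arc, Egr1 and Grasp as higher and Mtor as lower in hyperoxia, opposite to what the column names give. Its Results text follows its table for Mtor but calls Arc and Egr1 decreased. Its staining of an additional set of mice gave less CNPase and more GFAP area in CA1 with hyperoxia. By the column names, the log2 fold changes of Cnp and Gfap RNA were -0.30 and 0.06, and neither passed the test between the groups. The paper thus does not settle the column names, and if they were exchanged every direction given below would turn.

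Metabotropic glutamate receptors are G protein-coupled receptors that tune how strongly a glutamatergic synapse responds and how much transmitter it releases. Group I receptors, such as the product of Grm5, sit mostly at the postsynaptic side and act through Gq and phospholipase C, which releases calcium from internal stores. Group II receptors (Grm2, Grm3) and group III receptors (Grm4, Grm7, Grm8) act through Gi/o and lower cyclic AMP, many of them at presynaptic terminals, and the product of Grm3 is also known from astrocytes. Homer proteins bind group I receptors and connect them to inositol trisphosphate receptors and to Shank proteins of the postsynaptic density, and in the hippocampus this complex is known for a form of long-term depression that group I receptors trigger.

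The stretch before the start site is shown for the Homer genes and for the group II pair, since each of these families held genes that passed the test between the groups and genes that did not. The sequences are the 250 bases upstream of the RefSeq start site in GRCm38.p6, 5′ to 3′ on the strand of the gene, and where RefSeq lists more than 1 start site the outermost was used. They lie at chr13:93303507-93303756 (plus strand) for Homer1, chr7:81706926-81707175 (minus) for Homer2, chr8:70282749-70282998 (plus) for Homer3, chr9:106656110-106656359 (minus) for Grm2 and chr5:9725353-9725602 (minus) for Grm3. Capitals mark the matches, on either strand, to the motifs searched.
Homer1: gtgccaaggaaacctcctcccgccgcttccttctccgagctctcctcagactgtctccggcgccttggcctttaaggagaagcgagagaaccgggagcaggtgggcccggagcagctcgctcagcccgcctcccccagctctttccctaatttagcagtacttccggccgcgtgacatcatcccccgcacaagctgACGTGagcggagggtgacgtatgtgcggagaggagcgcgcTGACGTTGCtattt
Homer2: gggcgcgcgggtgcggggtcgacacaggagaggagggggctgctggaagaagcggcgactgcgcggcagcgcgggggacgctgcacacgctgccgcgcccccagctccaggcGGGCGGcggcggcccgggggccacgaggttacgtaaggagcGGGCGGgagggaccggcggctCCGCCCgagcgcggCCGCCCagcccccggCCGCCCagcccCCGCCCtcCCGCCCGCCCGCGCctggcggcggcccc
Homer3: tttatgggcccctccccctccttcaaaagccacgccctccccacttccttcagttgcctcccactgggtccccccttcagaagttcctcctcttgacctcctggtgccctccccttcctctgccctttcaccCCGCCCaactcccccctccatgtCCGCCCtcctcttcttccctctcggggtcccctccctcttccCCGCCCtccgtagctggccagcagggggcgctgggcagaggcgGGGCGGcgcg
Grm2: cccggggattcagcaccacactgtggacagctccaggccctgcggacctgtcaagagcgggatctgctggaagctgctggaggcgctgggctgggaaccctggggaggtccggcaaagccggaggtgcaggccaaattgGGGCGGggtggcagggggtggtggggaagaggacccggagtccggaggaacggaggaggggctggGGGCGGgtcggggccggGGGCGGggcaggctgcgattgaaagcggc
Grm3: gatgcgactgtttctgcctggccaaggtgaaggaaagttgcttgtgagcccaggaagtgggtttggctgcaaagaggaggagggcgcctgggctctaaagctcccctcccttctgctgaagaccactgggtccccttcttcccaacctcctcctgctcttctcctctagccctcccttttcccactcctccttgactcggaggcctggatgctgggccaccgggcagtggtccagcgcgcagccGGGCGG
The motifs searched were the cyclic AMP response element (TGACGTCA), the EGR site (GCGNGGGCG), the AP-1 site (TGANTCA), the antioxidant response element core (TGACNNNGC), the hypoxia response element core (ACGTG), the TATA box (TATAAA) and the GC box (GGGCGG).

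The Homer windows differed in base composition and in these letters. The Homer2 window had a GC content of 83.2%, 40 CpG dinucleotides and 8 GC boxes, of which some overlap each other, and its EGR match overlaps a GC box. The Homer3 window had a GC content of 68.0%, 11 CpG and 4 GC boxes. The Homer1 window had a GC content of 62.4%, 21 CpG and no GC box, but 1 match each to the antioxidant and the hypoxia response element cores. The Grm2 window held 3 GC boxes and the Grm3 window held 1, with 16 and 8 CpG. Over the 32851 RefSeq windows of this length, the median GC content was 52.4% and the median CpG count was 6. A GC box was present in 32.7% of them, the hypoxia response element core in 16.6%, the antioxidant core in 10.2% and the EGR site in 4.7%. A match is a description of the letters only. Group III likewise held genes that passed and a gene that did not, but its RefSeq windows, found for Grm7 and Grm8, are not shown. No window was found for Grm4 and Grm5.

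Reads on genes ranged from 30384052 to 38746972 per library, and the median tested gene had 449 to 576 reads. Replicates lay further apart than counting error allows (chi-square per gene between 6.51 and 47.2), and each library was counted as its own replicate. The litter of each mouse is not given, so mice of a group may share a dam, and this spread does not show that they are independent. The 3 pairs of hyperoxia libraries (15.4 to 47.2) were further apart than the 3 pairs of air libraries (6.51 to 10.5). Hyperoxia library 2 was the shallowest and lay apart from the other 5 on the second principal component, at -38.73 against -5.45 to 22.56, and this component held 19.53% of the variance. Hyperoxia library 3 stood apart in choroid plexus markers, whose sum was 8434 against 659 to 1615 in the other 5 libraries. Neuronal markers were present in every library, at a summed normalized count of 233490 to 244523 over 10 genes. Of these 10, 3 were called higher and 4 lower. Oligodendrocyte markers, of which 7 of 8 were called lower, summed to 217623 to 330867 in air and 149331 to 182355 in hyperoxia. Endothelial markers, with 5 of 8 called higher and 1 lower, summed to 8317 to 8643 and 9949 to 11223, and oligodendrocyte precursor markers, with 4 of 8 called higher and none lower, to 22824 to 25815 and 26064 to 29265. The oligodendrocyte, endothelial and precursor sums did not overlap between the groups. Among all genes tested, 15.6% were called lower and 14.9% higher, and 46.1% had groups that did not overlap. The part of these cells in the values of the 9 genes was not tested.

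By the names of the deposited columns, hyperoxia-exposed mice had higher levels of Grm3, Grm4, Grm8 and Homer2 and a lower level of Homer3, while Grm2, Grm5, Grm7 and Homer1 did not pass the test. A gene was called where its limma p-value, from a fit on log2 of the normalized count plus 1 with Benjamini-Hochberg adjustment across the whole table, was under 0.05. Of the 9 genes, 5 were called, beside 30.5% of all genes tested. In the higher direction 4 were called, beside 14.9% of all genes, and in the lower direction 1 was called, beside 15.6%. The same 5 genes had air and hyperoxia libraries that did not overlap, which was so for 46.1% of all genes tested (22.3% higher and 23.8% lower in hyperoxia). The median log2 fold change of the 9 genes was 0.02, beside -0.01 over all genes. Where shares and ratios were compared one at a time, the exact two-sided permutation test could not go below a p of 0.1 with 3 mice per group.

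**Figure D1:**
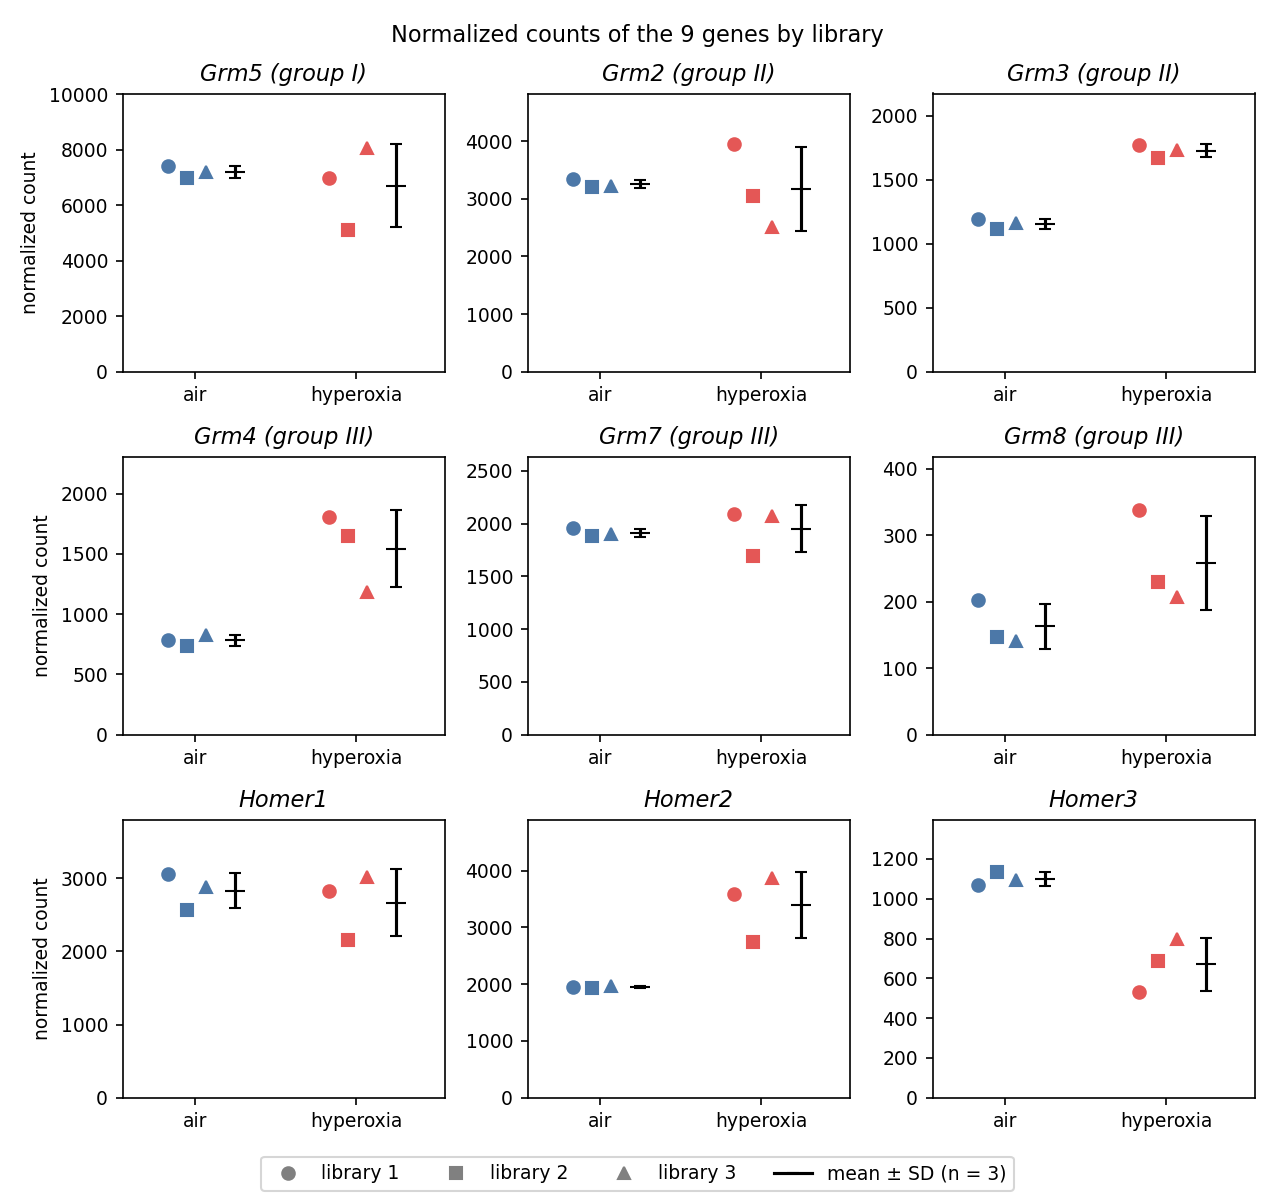
Normalized count (vertical axis, from 0) of each of the 9 genes in the 3 air (blue) and 3 hyperoxia (red) libraries, with the symbol giving the library number and the bar the mean ± SD (n = 3). The groups are apart for Grm3, Grm4, Grm8, Homer2 and Homer3, and the SD is larger in hyperoxia than in air for all 9 genes.

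Among the group I receptors, Grm5 (ENSMUSG00000049583.15, chr7:87584168-88134907, plus strand), which encodes mGlu5, the main postsynaptic group I receptor of the forebrain, gave normalized counts of 7427, 6994 and 7194 in air libraries 1 to 3 and 6979, 5101 and 8051 in hyperoxia libraries 1 to 3. The hyperoxia values lay on both sides of the air values, with library 2 the lowest and library 3 the highest of all 6. The air mean of 7205 ± 217 and the hyperoxia mean of 6710 ± 1493 (SD, n = 3 each) gave a log2 fold change of -0.13 (SE 0.14, 95% confidence interval -0.44 to 0.19, limma adjusted p = 0.519). Without hyperoxia library 2 the sign turned, at 0.058. After removal of the smooth dependence of each library on transcript length and GC content (the length and GC correction), Grm5 was called lower, at -0.41 (limma adjusted p = 0.0025).

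Of the group II receptors, Grm3 rose and Grm2 did not pass. Grm3 (ENSMUSG00000003974.6, chr5:9485541-9725170, minus strand), which encodes mGlu3, had normalized counts of 1194, 1114 and 1159 in air and 1774, 1674 and 1737 in hyperoxia. Every hyperoxia library was above every air library, and the spread within each group was small. The mean went from 1156 ± 40.0 (SD, n = 3) to 1729 ± 50.4 (SD, n = 3), a 1.5-fold rise with a log2 fold change of 0.58 (SE 0.07, 95% confidence interval 0.42 to 0.74, limma adjusted p = 0.000826). It was called under all 16 alternative settings, at 0.55 to 0.60. The 10 astrocyte markers summed to 208054 to 218426 in air and 245849 to 263641 in hyperoxia, with 4 called higher and 1 lower. This stands beside 14.9% of all genes tested called higher and 15.6% lower. The sum mostly follows Slc1a2, the most abundant of the 10, which went from 104640 ± 6138 to 149380 ± 15670 (normalized count, SD, n = 3). Aldoc, the marker called lower, went from 35452 ± 754 to 27556 ± 4001 (SD, n = 3), and 5 markers did not pass. None of these markers was near 0, and the part of astrocytes in the Grm3 value was not tested.

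Grm2 (ENSMUSG00000023192.12, chr9:106643095-106656082, minus strand) encodes mGlu2, a mostly presynaptic receptor. It had normalized counts of 3339, 3204 and 3216 in air and 3945, 3043 and 2512 in hyperoxia. Hyperoxia library 1 lay above and libraries 2 and 3 below all air libraries. The air mean of 3253 ± 74.7 and the hyperoxia mean of 3167 ± 724 (SD, n = 3 each) gave a log2 fold change of -0.06 (SE 0.14, 95% confidence interval -0.37 to 0.24, limma adjusted p = 0.751), and its sign turned, at 0.091, without hyperoxia library 3. Within a library, the log2 ratio of Grm2 to Grm3 per kb of exon was 0.80, 0.84 and 0.79 in air and 0.47, 0.18 and -0.15 in hyperoxia. All hyperoxia libraries had a lower ratio than all air libraries, so that Grm2 no longer stood above Grm3 in hyperoxia library 3. The mean ratio differed by -0.64 on the log2 scale (exact permutation p = 0.1, the smallest this design can give).

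Of the group III receptors, Grm4 and Grm8 rose and Grm7 did not pass. Grm4 (ENSMUSG00000063239.16, chr17:27422387-27521403, minus strand), which encodes the presynaptic receptor mGlu4, had normalized counts of 782, 740 and 825 in air and 1804, 1646 and 1183 in hyperoxia. All hyperoxia libraries were above the air libraries, with library 3 the nearest to them. The mean rose from 782 ± 42.8 (SD, n = 3) to 1545 ± 323 (SD, n = 3), a 1.94-fold change and the largest of the 9 genes, with a log2 fold change of 0.96 (SE 0.14, 95% confidence interval 0.64 to 1.27, limma adjusted p = 0.00161). It was called under all 16 alternatives, at 0.84 to 1.14, with limma, edgeR or DESeq2 adjusted p from 1.3e-09 to 0.016.

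Grm8 (ENSMUSG00000024211.15, chr6:27275119-28135178, minus strand) encodes mGlu8, another presynaptic receptor, and was the least abundant of the 9, with 137 to 382 reads per library. It had normalized counts of 202, 147 and 141 in air and 338, 229 and 207 in hyperoxia. The groups were apart, though the lowest hyperoxia value lay just above the highest air value. The means were 163 ± 34.1 and 258 ± 70.2 (SD, n = 3 each), and the log2 fold change was 0.64 (SE 0.20, 95% confidence interval 0.19 to 1.10, limma adjusted p = 0.0388). The call was kept under 10 of 16 alternatives. It was lost without hyperoxia library 1 (0.43), air library 2 (0.57) or air library 3 (0.54), each with a limma adjusted p = 0.13. It was also lost under quantile normalization (limma adjusted p = 0.061), and without the mean-variance trend or with the length and GC correction (0.091 in both).

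Grm7 (ENSMUSG00000056755.13, chr6:110645581-111567230, plus strand), whose product mGlu7 sits in the presynaptic active zone, had normalized counts of 1957, 1881 and 1900 in air and 2090, 1696 and 2070 in hyperoxia. Hyperoxia library 2 was below and libraries 1 and 3 above all air libraries. The log2 fold change of 0.02 had a 95% confidence interval of -0.18 to 0.23 (limma adjusted p = 0.866), which leaves out changes of the size seen for Grm4. The paper likewise reports unchanged mRNA of this receptor, but less mGlu7 protein in hyperoxia by mass spectrometry of the right hippocampus. RNA levels therefore do not stand for the protein here. Within the group III genes, Grm4 made up 27.0%, 27.0% and 29.1% of the summed level per kb in air and 43.7%, 47.0% and 34.7% in hyperoxia, while Grm7 made up 68.7%, 69.8% and 68.0% in air and 51.4%, 49.1% and 61.7% in hyperoxia. Neither share overlapped between the groups (exact permutation p = 0.1 each). Grm8 stayed a small part, at 3.48 ± 0.657% and 4.18 ± 0.673% (SD, n = 3; exact permutation p = 0.3).

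Grm2, Grm4 and Grm8 shared the order of their hyperoxia libraries, with library 1 the highest and library 3 the lowest. The summed normalized count of the 8 neocortex markers had the same order, at 12285, 10026 and 9025 in hyperoxia libraries 1 to 3 and 8221 to 9245 in air, with 3 markers called higher and 1 lower. The thalamus markers summed to 5891 to 6197 in air and 8531 to 9791 in hyperoxia, where 4 of the 8 tested were called higher and none lower, while Gbx2 was below the filter. Among these, Slc17a6, a vesicular glutamate transporter, went from 593 ± 37.7 (SD, n = 3) to 1966 ± 263 (SD, n = 3). Its log2 fold change of 1.72 was the largest of the 8, and the 4 that did not pass lay between -0.21 and 0.31. Over all genes tested, 14.9% were called higher and 15.6% lower. The part of tissue next to the hippocampus in the Grm4 and Grm8 values was not tested.

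**Figure D2:**
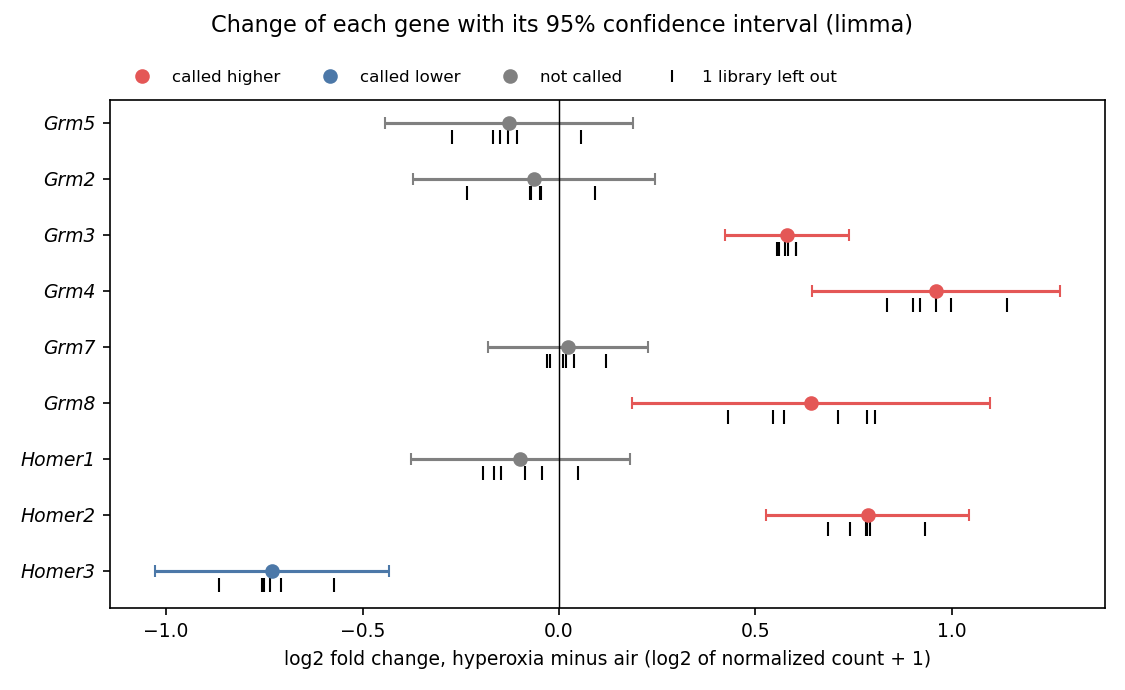
Log2 fold change of each of the 9 genes, hyperoxia minus air, on the scale of log2 of the normalized count plus 1 (horizontal axis), with its 95% confidence interval from limma. Ticks below each point give the value with 1 library left out, and they stay on one side of 0 for the 5 called genes and cross it for Grm2, Grm5, Grm7 and Homer1.

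The Homer genes went in different directions. Homer2 (ENSMUSG00000025813.14, chr7:81600481-81707527, minus strand), which encodes a long, coiled-coil Homer that can link receptors to one another, had normalized counts of 1943, 1937 and 1969 in air and 3580, 2744 and 3870 in hyperoxia. All hyperoxia libraries were well above the air libraries, which were nearly equal to one another. The mean rose from 1950 ± 16.9 (SD, n = 3) to 3398 ± 584 (SD, n = 3), a 1.72-fold change with a log2 fold change of 0.79 (SE 0.12, 95% confidence interval 0.53 to 1.04, limma adjusted p = 0.00162). It was called under all 16 alternatives, but the length and GC correction brought the log2 fold change to 0.46. The antisense gene Gm44570 overlaps 525 bases of its exons and had normalized counts of 2.26 to 9.65.

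Homer3 (ENSMUSG00000003573.15, chr8:70282827-70294361, plus strand), which encodes a further coiled-coil Homer, had normalized counts of 1070, 1135 and 1092 in air and 530, 685 and 797 in hyperoxia. All hyperoxia libraries were below the air libraries, and library 1 was the lowest. The mean fell from 1099 ± 32.9 (SD, n = 3) to 671 ± 134 (SD, n = 3), which is 61.0% of the air mean, with a log2 fold change of -0.73 (SE 0.13, 95% confidence interval -1.03 to -0.43, limma adjusted p = 0.00388). It was called under all 16 alternatives, at -0.87 to -0.57. The helicase gene Ddx49 lies on the other strand and overlaps 874 bases of Homer3 exons, and 18.8% of the 75-base stretches of Homer3 transcripts are also found in transcripts of the opposite strand. Ddx49 had 662 ± 56.5 in air and 627 ± 58.5 in hyperoxia (normalized count, SD, n = 3), with a log2 fold change of -0.08 (limma adjusted p = 0.582). Whether counting used the strand is not given, so reads on that stretch can belong to either gene.

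Dentate granule cell markers moved in the same direction as Homer3. Of the 8 genes, 6 were called lower and none higher, and their sum was 20111 to 20652 in air and 13303, 12637 and 18309 in hyperoxia libraries 1 to 3. Among all genes tested, 15.6% were called lower and 14.9% higher. CA3 pyramidal cell markers, with 3 of 7 called lower and 1 higher, summed to 11036 to 12031 in air and to 8651, 10214 and 11671 in hyperoxia, in the same order of libraries as Homer3. No marker of either list was near 0, and the part of these cells in the Homer3 value was not tested.

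Homer1 (ENSMUSG00000007617.17, chr13:93299635-93405129, plus strand) encodes long scaffold forms and Homer1a, a short early response form without the coiled coil that uncouples the scaffold. Counts per gene do not separate these forms. Its normalized counts were 3052, 2568 and 2875 in air and 2829, 2154 and 3017 in hyperoxia, and the groups overlapped, with hyperoxia library 2 the lowest. The means were 2832 ± 245 in air against 2667 ± 454 in hyperoxia (SD, n = 3 each), and the log2 fold change was -0.10 (SE 0.12, 95% confidence interval -0.38 to 0.18, limma adjusted p = 0.578). The sign turned, at 0.049, without hyperoxia library 2, and with the length and GC correction Homer1 was called lower, at -0.39 (limma adjusted p = 0.0041).

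Beside Homer1, 15 immediate early genes, which neurons switch on within minutes of activity, had 9 called lower and none higher. Over all genes tested, 15.6% were called lower. The sum of the 15 was 25560 to 29701 in air and 16250 to 18018 in hyperoxia. Arc, whose product helps remove AMPA receptors from the synapse, had normalized counts of 5294, 5074 and 5436 in air and 1850, 1646 and 1574 in hyperoxia. By the column names, the log2 fold change was -1.64 (SE 0.08, limma adjusted p = 4.74e-05). Egr1, a transcription factor, fell by 0.90 on the log2 scale (SE 0.15, limma adjusted p = 0.00275), and Fos, a part of AP-1, was at -0.31 and did not pass (limma adjusted p = 0.108). The paper's table and Discussion have Arc and Egr1 higher in hyperoxia, while its Results text calls both decreased.

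The makeup of the Homer family within each library followed from these changes and does not depend on the scaling between libraries. Per kb of exon, Homer2 made up 21.4%, 22.0% and 21.9% of the summed Homer level in air and 42.1%, 36.5% and 38.8% in hyperoxia. Homer3 made up 43.2%, 47.3% and 44.5% in air and 22.9%, 33.4% and 29.3% in hyperoxia. The groups were apart for both shares, with differences of 17.4 and -16.5 percentage points (exact permutation p = 0.1 each). The ratio of Homer2 to Homer3 per kb went from 0.484 ± 0.016 to 1.42 ± 0.383 (SD, n = 3). On this scale only, Homer3 led Homer2 in every air library and Homer2 led Homer3 in every hyperoxia library. Homer1 made up 33.3 ± 2.36% in air and 32.4 ± 2.48% in hyperoxia (SD, n = 3; exact permutation p = 0.7). The exons span 11976 bases in Homer1, 12621 in Homer2 and 3440 in Homer3, so without division by length Homer3 has less weight, and the Homer1 share then was 48.1 ± 2.41% in air against 39.5% (38.6% to 40.8%) in hyperoxia (SD, n = 3; exact permutation p = 0.1). Without that division Homer2 led Homer3 in every library of both groups. The Homer2 share was then 33.2 ± 1.16% in air and 50.4 ± 1.22% in hyperoxia, and the Homer3 share 18.7 ± 1.27% and 10.1 ± 2.32% (SD, n = 3).

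**Figure D3:**
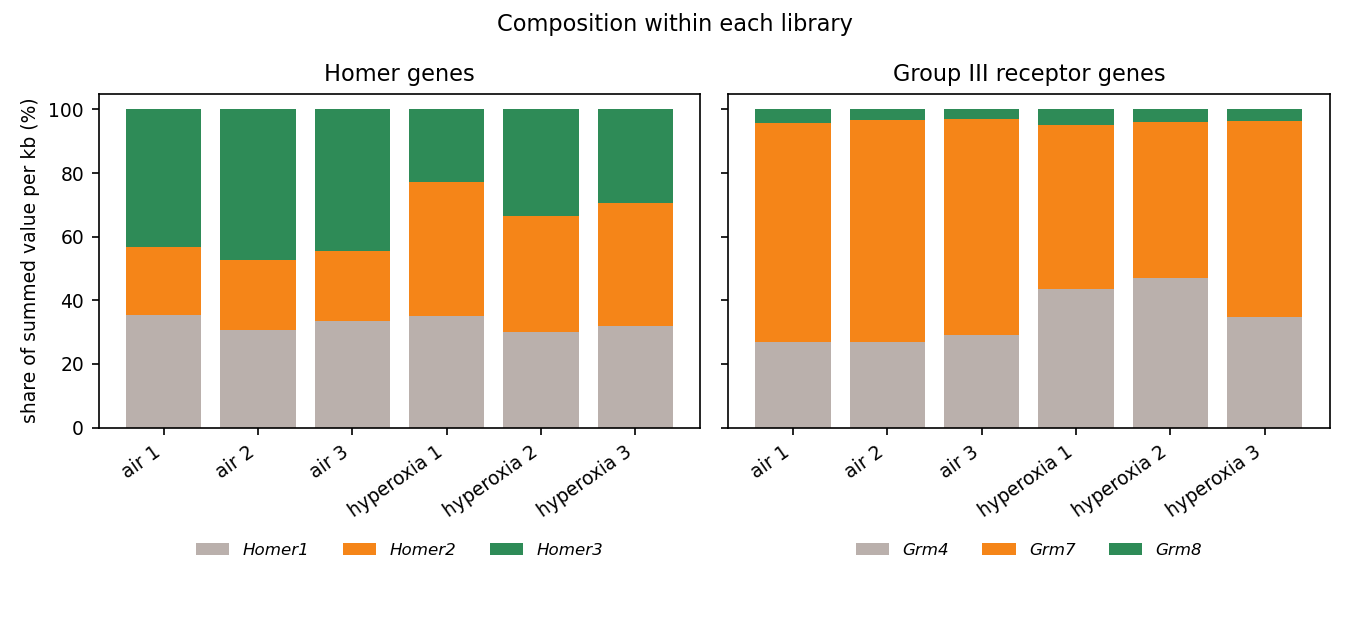
Share of the summed normalized count per kb of exon (vertical axis, %) held by each Homer gene (left) and each group III receptor gene (right) in the 6 libraries. The Homer2 share is 21.4% to 22.0% in air and 36.5% to 42.1% in hyperoxia, and the Grm4 share is 27.0% to 29.1% in air and 34.7% to 47.0% in hyperoxia.

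The levels per kb of exon set the genes in an order that the exposure partly changed. In air, Grm5 (703 ± 21.1 normalized counts per kb, SD, n = 3) and Grm2 (665 ± 15.3) were the most abundant. They were followed by Grm3 (379 ± 13.1), Grm7 (325 ± 6.74), Homer3 (319 ± 9.56), Homer1 (236 ± 20.4), Homer2 (154 ± 1.34), Grm4 (131 ± 7.16) and Grm8 (16.5 ± 3.45). Of these neighbours, only Grm7 and Homer3 differed by less than their SD.

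In hyperoxia, the first places were again held by Grm5 (655 ± 146 per kb, SD, n = 3), Grm2 (647 ± 148), Grm3 (567 ± 16.5) and Grm7 (332 ± 37.7). Below them, Homer2 (269 ± 46.3) and Grm4 (258 ± 54.0) were now above Homer1 (223 ± 37.9) and Homer3 (195 ± 39.0), and Grm8 (26.0 ± 7.09) stayed last. The neighbours Grm5 and Grm2, Grm2 and Grm3, Homer2 and Grm4, Grm4 and Homer1, and Homer1 and Homer3 differed by less than the larger SD of the pair. Per gene, the coefficient of variation was 0.868% to 20.9% in air and 2.92% to 27.2% in hyperoxia. Hyperoxia library 2 was the lowest of its group for Grm5, Grm7, Homer1 and Homer2, and for Grm3 by a small margin.

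The genes most like the strongest riser and the faller over the 6 libraries were found by the root mean square difference of centred log2 values, among 14945 genes. For Grm4 they were Dpy19l1, a C-mannosyltransferase gene (difference 0.064), Bmp7, a secreted growth factor (0.067), and Chrna4, a nicotinic receptor subunit (0.069). Chrna4 had normalized counts of 1043, 873 and 1057 in air and 2097, 2088 and 1505 in hyperoxia, with library 3 the lowest of its group as for Grm4. For Homer3 they were Fam83d (0.058), Cabp7, a neuronal calcium-binding protein (0.066), and Cecr2, a chromatin remodelling gene (0.071). Cabp7 had 4549, 4957 and 4863 in air and 2585, 3099 and 3397 in hyperoxia, in the same order as Homer3 within the hyperoxia group. These 6 genes were picked for this likeness, so their changes are no further evidence.

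Beyond the receptors and scaffolds, genes of the pathway were counted in 6 lists, to be read against the 30.5% called among all genes. In the Gq and phospholipase C arm, through which group I receptors signal, 4 of 18 genes rose, 2 fell and 12 did not pass (33.3% called, median log2 fold change 0.10). Itpr3, a calcium release channel, went from 123 ± 3.32 to 209 ± 30.8 (normalized count, SD, n = 3; log2 fold change 0.75, limma adjusted p = 0.00419). Trpc6, a cation channel opened downstream of phospholipase C, went from 445 ± 31.7 to 208 ± 27.2 (-1.10, limma adjusted p = 0.000548), and Dagla, which makes the endocannabinoid 2-AG, from 11236 ± 658 to 7474 ± 911 (-0.59, limma adjusted p = 0.00222). The G protein gene Gnaq was at 0.12 and did not pass (limma adjusted p = 0.377). Without hyperoxia library 2, 13 of the 18 were called, beside 43.6% of all genes at that setting.

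In the Gi/o and adenylyl cyclase arm, through which group II and III receptors signal, 7 of 22 genes rose, 2 fell and 13 did not pass (40.9% called, median 0.17). Adcy8, a calcium-stimulated adenylyl cyclase, went from 617 ± 22.8 to 1157 ± 247 (normalized count, SD, n = 3; log2 fold change 0.89, limma adjusted p = 0.00171), and Prkar2b, a regulatory subunit of protein kinase A, from 1353 ± 88.5 to 2114 ± 299 (0.64, limma adjusted p = 0.00254). Prkaca, a catalytic subunit of that kinase, went from 9571 ± 490 to 7071 ± 362 (-0.44, limma adjusted p = 0.00268), and Gnao1, the main neuronal Gi/o subunit, from 45800 ± 3200 to 37416 ± 1655 (-0.29, limma adjusted p = 0.0286). Without hyperoxia library 2, 14 of the 22 were called, again beside 43.6% of all genes.

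Among the ligands and partners of Homer proteins, 1 of 18 genes rose, 5 fell and 12 did not pass (33.3% called, median -0.08). Dnm3, a dynamin of the spine that Homer ties to the endocytic zone, went from 2566 ± 162 to 3479 ± 307 (normalized count, SD, n = 3; log2 fold change 0.44, limma adjusted p = 0.00531). Ryr1, a calcium release channel, went from 1136 ± 57.3 to 775 ± 255 (-0.60, limma adjusted p = 0.0407), and Dlgap1, a scaffold between PSD-95 and Shank, from 26364 ± 790 to 17873 ± 850 (-0.56, limma adjusted p = 0.00102). Shank1, the postsynaptic scaffold that Homer binds, was also among the 5 that fell, at -0.53 (limma adjusted p = 0.00498). The count was 10 without hyperoxia library 2 (43.6% of all genes) and also 10 with the length and GC correction (34.9% of all genes).

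Of the 15 tested genes whose products bind metabotropic receptors, none rose, 5 fell and 10 did not pass (33.3% called, median -0.15). Grasp, whose product tamalin is a scaffold of group I receptors, went from 2752 ± 167 to 1258 ± 66.9 (normalized count, SD, n = 3; log2 fold change -1.13, limma adjusted p = 0.000179), and Ncdn, whose product norbin binds mGlu5, from 72516 ± 1467 to 47764 ± 2024 (-0.60, limma adjusted p = 0.00113). The paper's supplement lists Grasp among the genes higher in hyperoxia, the opposite sign. Without hyperoxia library 2 the count was 8, beside 43.6% of all genes. Elfn1 and Elfn2, whose products recruit group III receptors across the synaptic cleft, were at -0.01 and 0.08 and did not pass (limma adjusted p = 0.925 and 0.617).

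Of 13 tested genes of receptor desensitisation and RGS proteins, 3 rose, 3 fell and 7 did not pass (46.2% called, median -0.01). The arrestin genes, whose products uncouple phosphorylated receptors, went opposite ways, with Arrb1 from 6845 ± 172 to 9493 ± 347 (normalized count, SD, n = 3; log2 fold change 0.47, limma adjusted p = 0.00138) and Arrb2 from 2383 ± 91.2 to 1536 ± 157 (-0.64, limma adjusted p = 0.0012). Grk5, a receptor kinase, went from 172 ± 21.5 to 287 ± 9.20 (0.74, limma adjusted p = 0.00261), and Rgs14, a GTPase activator for Gi/o known from CA2 neurons, from 2673 ± 10.7 to 1475 ± 172 (-0.86, limma adjusted p = 0.000451).

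Of 12 genes listed as effectors of long-term depression, 2 rose, 3 fell and 7 did not pass (41.7% called, median -0.05). Besides Arc, given above, Nptx2, a pentraxin that gathers AMPA receptors, went from 2354 ± 195 to 1849 ± 169 (normalized count, SD, n = 3; log2 fold change -0.35, limma adjusted p = 0.0182), and Mtor, a kinase that promotes translation, from 2892 ± 79.0 to 3689 ± 322 (0.35, limma adjusted p = 0.0104). The paper lists Mtor mRNA as lower in hyperoxia. Pdk1, the other gene that rose (0.35, limma adjusted p = 0.0102), encodes in mouse a pyruvate dehydrogenase kinase and does not belong among such effectors, which leaves Mtor as the only effector of the list that rose. The count was 1 without air library 2 (17.4% of all genes called), 2 without air library 1 (17.1%), 3 without hyperoxia library 1 (19.0%) and 3 without the mean-variance trend (23.8%).

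**Figure D4:**
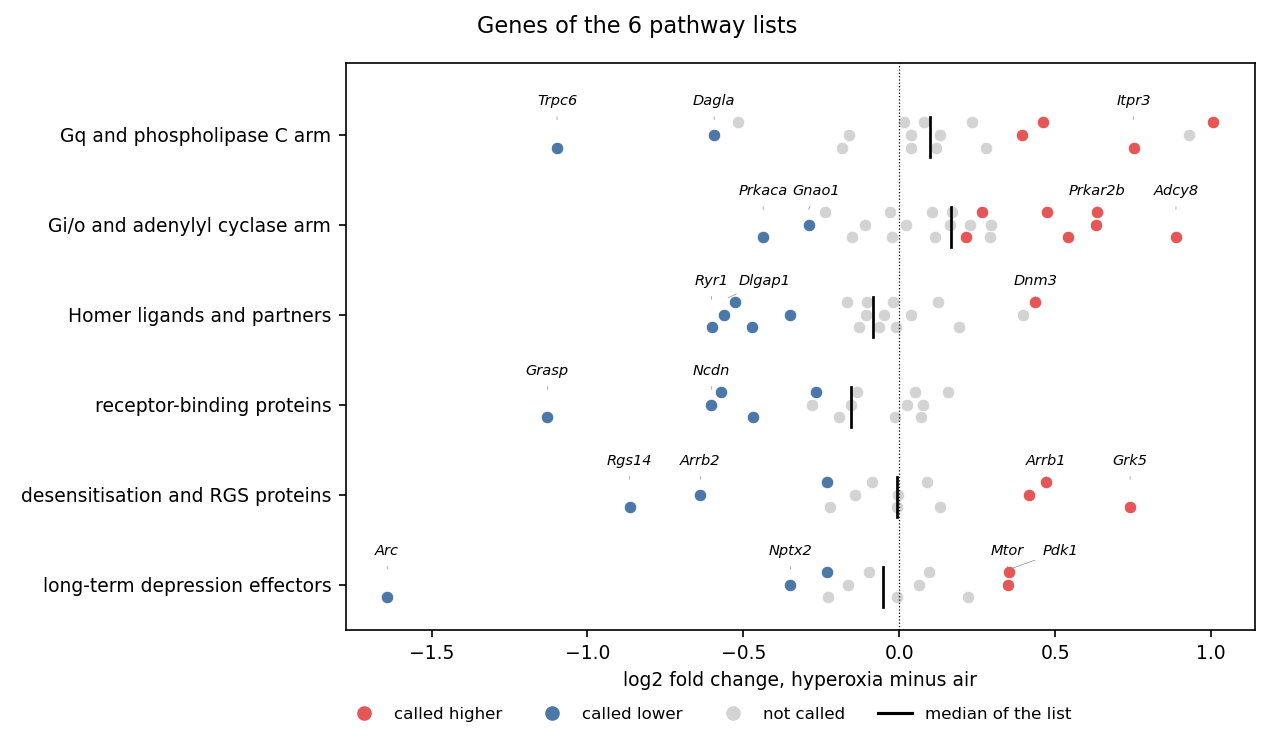
Log2 fold change, hyperoxia minus air (horizontal axis), of each tested gene of the 6 pathway lists, with called genes in red (higher) or blue (lower), others in grey, and the median of each list as a bar. The medians lie between -0.15 (receptor-binding proteins) and 0.17 (Gi/o and adenylyl cyclase arm), and Arc (-1.64) is the farthest from 0.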

How the data were processed

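The study's authors sequenced left hippocampal mRNA of 3 air and 3 hyperoxia mice in paired-end mode (Illumina NextSeq 500). The values the authors deposited are a signal per gene and library, a read count divided by 1 size factor per library. FastQC, STAR 2.5.3a, HTSeq and DESeq2 are named in the submitters' processing notes, with no role. The genome build, annotation and strand setting were not given in the sources used here. A second table holds the authors' own comparison (mean, log2 fold change, standard error, statistic, p and adjusted p), with signs of air over oxygen, and was not used.

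In all 6 libraries, 100% of the deposited values came out as whole reads (tolerance 0.01), so reads were recovered. Genes with a mean of at least 10 were tested with limma 3.58.1 in R 4.3.3 (mean-variance trend, log2 of the value plus 1, two-sided, Benjamini-Hochberg over 17778 genes, threshold 0.05). This scale understates the change of low genes. The 16 alternatives were a pseudocount of 0.5 or 5, no filter on low values, a minimum mean of 50, TMM scaling, quantile normalization, no trend, edgeR 4.0.16 and DESeq2 1.42.0 on recovered reads, removal of each library's trend on length and GC content (mgcv 1.9.3, 17735 genes), and each library left out in turn. Family shares and ratios were compared by exact two-sided permutation tests. The fitting code was tested on simulated data.

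Positions, exon lengths and overlaps came from GENCODE M21 on GRCm38, which held 99.68% of the deposited identifiers (84.82% with the same version), and promoter sequences from RefSeq (GRCm38.p6). No 75-base stretch was shared between the 9 genes. The genes named are the 9 genes, up to 2 risers and 2 fallers with the largest called change of each pathway list, the 3 genes most like Grm4 and Homer3, and Arc, Fos and Egr1; 1 gene that this rule names is not reported here. Gnaq, Shank1, Elfn1, Elfn2, Slc17a6, Slc1a2, Aldoc, Cnp, Gfap and the overlapping Ddx49 and Gm44570 were added after their values were seen. The 9 genes and all lists were chosen with earlier results of these data known.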

Additional observations from a re-analysis of the deposited data

How the results depend on the processing

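The 16 alternatives kept the calls of Grm3, Grm4, Homer2 and Homer3, and the 9 genes had 4 to 6 calls. With 1 library left out in turn, the log2 fold change of Grm2 ranged from -0.23 to 0.091, of Grm5 from -0.27 to 0.058, of Grm7 from -0.029 to 0.12 and of Homer1 from -0.19 to 0.049, so that each changed sign. The length and GC correction brought Grm7 to -0.035 and raised the number of the 9 genes called lower to 3 by adding Grm5 and Homer1. The difference in the Homer1 share was -0.90 percentage points, -8.56 with values not divided by gene length and -4.22 with the length and GC correction. Over all genes, 5425 were called (7594 at an unadjusted p under 0.05, 5501 with edgeR and 5611 with DESeq2), and 3048 to 7756 with 1 library left out. The share of all genes called ranged likewise, from 17.1% without air library 1 to 43.6% without hyperoxia library 2. With 1 library left out, called genes numbered 5 to 13 in the Gq and phospholipase C arm, 6 to 14 in the Gi/o arm, 4 to 10 among Homer ligands, 4 to 8 among receptor-binding proteins and 1 to 7 among long-term depression effectors. The length and GC correction called 10 Homer ligands, and the fit without the mean-variance trend called 3 long-term depression effectors. The causes were not tested. No paired analysis was possible because the labels number the animals 1 to 6 and the groups share no number. For 8 of the 9 genes the lowest library held 600 reads or more, and Grm8, with 137, is the one whose counting error is largest.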
